A study of Mus musculus with 6 samples.

Results

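The lysyl oxidase genes of mouse, Lox, Loxl1, Loxl2, Loxl3 and Loxl4, were taken by their names as a gene family. No cut-off on their values was used, but earlier results of these data were known. All 5 were found among the 42256 genes of the count table, and all 5 were among the 15840 genes whose counts were high enough to test. The RNA came from cells of mouse heart scar that were sorted for PDGFRa, a receptor on the surface of cardiac fibroblasts, 7 days after myocardial infarction. In 4 libraries, called Htr2b_cKO here, the genotype was Htr2bfl/flPostnMCM/+: both copies of the serotonin receptor gene Htr2b were floxed, and a tamoxifen-inducible Cre sat at 1 allele of Postn. In the 2 control libraries the genotype was Htr2bfl/fl, with the floxed gene and no Cre. All mice were of a mixed 129S2/C57Bl6 strain and ate chow with tamoxifen from 1 week before the injury. Postn, the periostin gene, is switched on in activated fibroblasts, so the Cre acts in those cells, while the sort took fibroblasts whether or not they had switched it on. Controls lacked the Cre, and therefore what the Cre or the altered Postn allele does by itself and what loss of Htr2b does cannot be told apart.

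Lysyl oxidases are secreted, copper-dependent enzymes that oxidise lysine side chains of collagen and elastin to reactive aldehydes. These aldehydes then join neighbouring chains, and the resulting crosslinks give a scar its stiffness and its strength. Lox and Loxl1 carry a propeptide that is cut off outside the cell, whereas Loxl2, Loxl3 and Loxl4 carry scavenger receptor cysteine-rich domains in front of the catalytic part. The comparison asked whether the family was expressed differently in scar fibroblasts when Htr2b had been targeted in myofibroblasts.

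The catalytic part is what makes the family, and its copper-binding stretch is rich in histidine. That stretch was found in the coding sequence of all 5 genes in the GENCODE transcripts of build mm10, and it crossed an exon boundary in each. The 54 bases around it are shown for 4 genes to let the shared histidines be seen, 5′ to 3′ on the coding strand, with the 5 histidine codons (CAC or CAT) of each in capitals. The search was made on the translated coding sequence of the longest coding transcript. The Loxl1 stretch joins exons 3 and 4 (chr9:58293708-58294390, minus strand), the Loxl2 stretch exons 10 and 11 (chr14:69682307-69689049, plus strand), the Loxl3 stretch exons 10 and 11 (chr6:83049986-83050137, plus strand) and the Loxl4 stretch exons 11 and 12 (chr19:42598795-42599908, minus strand), where each span includes the intron between them.
Loxl1: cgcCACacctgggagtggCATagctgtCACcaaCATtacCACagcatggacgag
Loxl2: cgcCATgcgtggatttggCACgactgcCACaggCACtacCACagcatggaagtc
Loxl3: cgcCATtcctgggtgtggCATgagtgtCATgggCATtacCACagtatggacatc
Loxl4: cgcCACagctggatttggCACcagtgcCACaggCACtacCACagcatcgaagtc

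The 5 histidine codons stood at the same places in the 4 stretches. Loxl2 and Loxl4 were the most alike, with 47 of 54 bases identical (87.0%), and Loxl1 had 37 of 54 (68.5%) in common with each of them. Behind the stretch, 120 codons remained in Lox and in Loxl1, against 143 in Loxl2, 141 in Loxl3 and 140 in Loxl4. In front of it the genes differed far more, because the coding sequence held 411 codons in Lox, 607 in Loxl1, 776 in Loxl2, 754 in Loxl3 and 758 in Loxl4. At the level of RNA the 5 genes are distinct: of all 31-base words in their transcripts, Lox and Loxl1 shared 2 with each other, and Loxl2, Loxl3 and Loxl4 shared 0.

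Library totals ran from 28533427 to 37392496 estimated counts, and levels are given as CPM, the usual measure of counts relative to library size, with the sizes scaled by TMM. Htr2b was scarce, at 0.876 CPM or less in every library. It had 0, 3, 29 and 4 estimated counts in Htr2b_cKO libraries 1 to 4 against 13 and 7 in control. The library labelled Htr2b_cKO 3 thus had more Htr2b counts than both controls. These few counts are for the whole gene, and the sort also took fibroblasts in which the Cre does not act. They therefore do not show whether the floxed gene was cut in that mouse. The library labelled Htr2b_cKO 4 was the only male, with 139 CPM over 4 Y-linked genes against at most 0.483 CPM in any other library. Pdgfra, the gene of the sorting marker, had 668 to 1126 CPM in Htr2b_cKO and 732 to 1237 CPM in control. Macrophage markers (Adgre1, Csf1r, Cd68, C1qa and Ptprc), all 5 detected, summed to 257, 506, 863 and 104 CPM in Htr2b_cKO libraries 1 to 4 and to 626 and 214 CPM in control. Of these genes Ptprc, at 57.1 CPM or less, is shared with other leukocytes. In log2 fold change, 3 macrophage markers were above 0 and 2 below. Endothelial markers summed to 42.5 to 85.2 CPM in Htr2b_cKO and to 228 and 45.5 CPM in control, and 5 of 5 were below 0 in log2 fold change. So were 3 of 3 mesothelial markers (75.2 to 166 CPM in Htr2b_cKO, 162 and 198 CPM in control), 3 of 3 B cell markers (1.28 to 8.27 CPM, against 16.3 and 4.81 CPM) and 4 of 4 neutrophil markers (23.9 to 76.7 CPM, against 97.1 and 33.8 CPM). None of these markers was called, and their part in the results was not tested. The endothelial, B cell and neutrophil sums of control 1 were above all Htr2b_cKO libraries, and those of control 2 were within the Htr2b_cKO range. Mural markers summed to 37.9 to 58.2 CPM, against 77.3 and 30.9 CPM, with 2 above 0 and 3 below. Cardiomyocyte markers summed to 8.67 to 23.9 CPM, against 29.3 and 8.21 CPM, with 1 above 0 and 4 below. The sums of all these marker groups, from macrophage to cardiomyocyte, overlapped between Htr2b_cKO and control. Schwann cell markers, at 1.28 CPM or less throughout, did not overlap (0.693 to 1.28 CPM, against 0.0781 and 0.542 CPM). In such bulk samples, fewer cells of a type and less RNA per cell cannot be told apart.

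The scar fibroblasts expressed Lox, Loxl1 and Loxl2 strongly, Loxl3 moderately and Loxl4 weakly, in both genotypes. No member passed the test between Htr2b_cKO and control: 0 of 5 were called at an adjusted p under 0.05, where 0.0189% of all genes tested were (3 of 15840). Loxl4 came nearest and was 1.67-fold higher in Htr2b_cKO, with an edgeR adjusted p of 0.5197. At an unadjusted p under 0.05, 1 of 5 members was higher in Htr2b_cKO, against 6.6% of all genes. For 1 of 5 members, Loxl4, the 4 Htr2b_cKO libraries were wholly above the controls, as they were for 10.6% of all genes, and for 0 of 5 they were wholly below, as they were for 8.98%. Of the 5 log2 fold changes 4 were above 0, with Loxl2 in the middle at 0.19, while 49.98% of all genes were above 0 and their median was -0.0001.

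**Figure D1:**
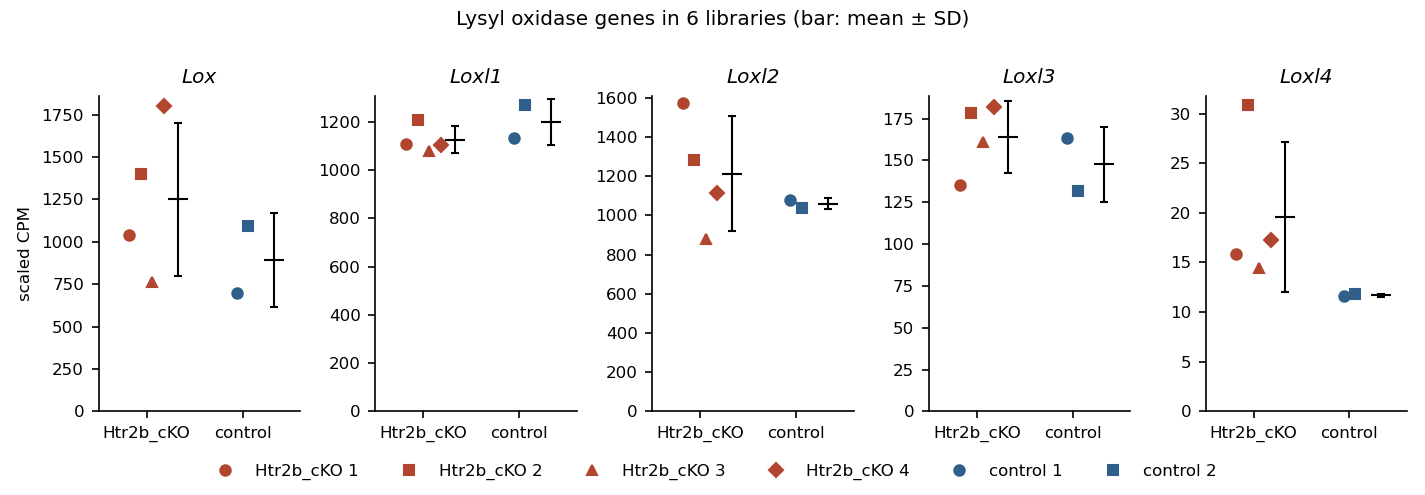
Scaled CPM of each lysyl oxidase gene, with 1 point per library, Htr2b_cKO (red) left of control (blue), and the mean ± SD of each group as a black bar (n = 4 and 2). Loxl4 is the gene whose 4 Htr2b_cKO points, from 14.4 to 30.8 CPM, all lie above the control points at 11.6 and 11.8 CPM.

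Levels of different genes were compared per kilobase of exon. Summed over the family they were 879, 942, 687 and 961 CPM per kb in Htr2b_cKO libraries 1 to 4, against 727 and 837 CPM per kb in control. The means were 868 ± 125 and 782 ± 77 (SD, n = 4 Htr2b_cKO and 2 control), and the groups overlapped. Loxl1 was the highest member per kb in 5 of 6 libraries; in the library labelled Htr2b_cKO 4, Lox stood above it. It averaged 341 ± 17 CPM per kb in Htr2b_cKO and 364 ± 29 in control. Lox came to 262 ± 94 and 187 ± 58 CPM per kb, and Loxl2 to 224 ± 54 and 196 ± 5, in Htr2b_cKO and in control. Between these neighbours there was no set order, since Lox was above Loxl2 in 3 of 6 libraries, and the log2 ratio of their levels per kb ran from -0.46 to 0.87. Loxl3, at 35.7 ± 4.7 CPM per kb in Htr2b_cKO and 32.1 ± 4.9 in control, was below these 3 in 6 of 6 libraries. Loxl4, at 4.64 ± 1.80 and 2.78 ± 0.04, was the lowest in 6 of 6 libraries.

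Within the family, Lox had the widest range of shares. Its share of the summed level per kb was 24.8%, 31.1%, 23.2% and 39.2% in Htr2b_cKO libraries 1 to 4, against 20.02% and 27.3% in control. The mean shares were 29.6 ± 7.3% and 23.7 ± 5.1%, so they differed by less than the SD of the Htr2b_cKO libraries. Loxl1 held 34.8% to 47.6% in Htr2b_cKO and 46.0% and 47.3% in control; 3 of its 4 Htr2b_cKO shares were below both controls, and the library labelled Htr2b_cKO 3 was above them. Loxl2 held 25.8 ± 5.1% and 25.2 ± 3.2%, Loxl3 4.16 ± 0.72% and 4.15 ± 1.03%, and Loxl4 0.532 ± 0.167% and 0.357 ± 0.030%, in Htr2b_cKO and in control.

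**Figure D2:**
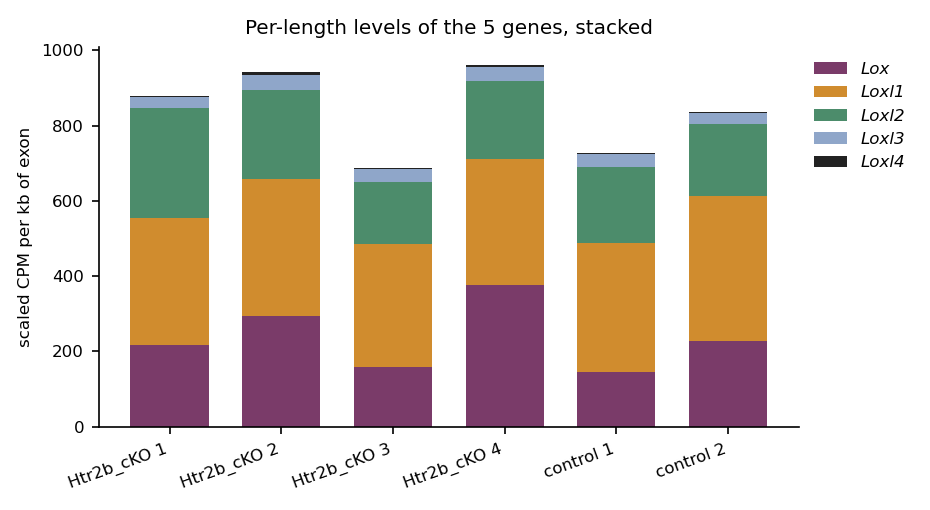
Stacked level per kb of exon of the 5 genes in each library, the 4 Htr2b_cKO libraries left of the 2 control libraries. The Lox block is highest in Htr2b_cKO 4, at 377 CPM per kb, and lowest in control 1, at 146, while the Loxl1 block stays between 327 and 385.

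Lox, the founding member, crosslinks fibrillar collagen and elastin, and its propeptide is removed by the protease BMP1 and its relatives. The gene (ENSMUSG00000024529) lies on the minus strand of chromosome 18 from 52516067 to 52529867 in mm10. It had 1042, 1399, 762 and 1801 CPM in Htr2b_cKO libraries 1 to 4, against 696 and 1091 CPM in control. Libraries Htr2b_cKO 2 and Htr2b_cKO 4 were above both controls, the other 2 lay between them, and so the groups overlapped. The means were 1251 ± 450 CPM in Htr2b_cKO and 893 ± 279 CPM in control, a log2 fold change of 0.49 (SE 0.36, 95% interval -0.34 to 1.31, edgeR adjusted p = 0.6925). These limits reach from 0.791-fold to 2.48-fold.

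The spread of Lox was wide within both genotypes. Its highest library was 2.59-fold above its lowest, and the SD of its log2 CPM over the 6 libraries, 0.52, was larger than that of 87.0% of the 12677 genes with a mean log2 CPM of at least 1, whose median was 0.25. That minimum lies far below the level of Lox, so the set includes many scarcer genes, whose spread holds more counting error. Its log2 fold change was 0.20 without control 1, 0.85 without control 2, 0.26 without the library labelled Htr2b_cKO 4 and 0.68 without the library labelled Htr2b_cKO 3. The 2 libraries with least Lox, the one labelled Htr2b_cKO 3 and control 1, had the most macrophage marker RNA (863 and 626 CPM), and the library with most Lox, Htr2b_cKO 4, had the least (104 CPM). The order was not the same throughout: Htr2b_cKO 2, second in Lox at 1399 CPM, had 506 CPM of these markers, more than Htr2b_cKO 1 (257 CPM) and control 2 (214 CPM), which had less Lox. The part of those cells, or of the sex of that mouse, in the Lox levels was not tested.

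Loxl1, which binds fibulin-5 and is known for the upkeep of elastic fibres, was the steadiest member. The gene (ENSMUSG00000032334) lies on the minus strand of chromosome 9 from 58287738 to 58313186. It had 1110, 1207, 1079 and 1104 CPM in Htr2b_cKO libraries 1 to 4, against 1133 and 1268 CPM in control. Libraries Htr2b_cKO 1, 3 and 4 were below both controls and Htr2b_cKO 2 lay between them. The means were 1125 ± 56 and 1201 ± 95 CPM in Htr2b_cKO and in control, a log2 fold change of -0.09 (SE 0.16, 95% interval -0.45 to 0.26, edgeR adjusted p = 0.8772). These limits reach from 0.733-fold to 1.20-fold. Highest and lowest library differed by 1.18-fold, and its SD of log2 CPM, 0.09, was smaller than that of most of the same 12677 genes (3.16% had a smaller one), many of them far less abundant. After a correction for GC content and length the estimate was 0.05, on the other side of 0.

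Loxl2 crosslinks collagen IV of basement membranes as well as fibrillar collagen, and it has been linked to interstitial fibrosis of the mouse heart. The gene (ENSMUSG00000034205) lies on the plus strand of chromosome 14 from 69609068 to 69695834. It had 1575, 1282, 877 and 1112 CPM in Htr2b_cKO libraries 1 to 4, against 1080 and 1040 CPM in control. Of the Htr2b_cKO libraries 3 were above both controls and the library labelled Htr2b_cKO 3 was below them. The means were 1212 ± 294 and 1060 ± 28 CPM in Htr2b_cKO and in control, a log2 fold change of 0.19 (SE 0.24, 95% interval -0.34 to 0.73, edgeR adjusted p = 0.8258). It was 0.05 without Htr2b_cKO 1 and 0.33 without the library labelled Htr2b_cKO 3.

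The Loxl2 level carries a doubt of its own, because an unprocessed pseudogene, Gm21451, lies beside it on the same strand (chromosome 14 from 69390854 to 69480287). Of the 5358 words of 31 bases in Loxl2 transcripts, 2318 also occur in Gm21451, and how the counter shared reads between them is not given in the sources used here. Gm21451 had 118 ± 21 CPM in Htr2b_cKO and 105 ± 3 CPM in control, which was 7.64% to 9.77% of the sum of both genes. Summed, the pair came to 1330 ± 311 and 1165 ± 25 CPM, and the log2 ratio of these means was 0.19, as for Loxl2 alone. An antisense gene, Gm27177, also overlaps Loxl2, and it made up at most 0.167% of their joint level in any library.

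Loxl3, needed for normal development of palate and spine in mice, stood well below these 3 genes. The gene (ENSMUSG00000000693) lies on the plus strand of chromosome 6 from 83034173 to 83052562. It had 135, 178, 161 and 182 CPM in Htr2b_cKO libraries 1 to 4, against 164 and 132 CPM in control. Libraries Htr2b_cKO 2 and Htr2b_cKO 4 were above both controls, and the other 2 lay between them. The means were 164 ± 21 and 148 ± 22 CPM in Htr2b_cKO and in control, a log2 fold change of 0.15 (SE 0.17, 95% interval -0.23 to 0.54, edgeR adjusted p = 0.8047). The estimate was 0.01 without control 2 and 0.31 without control 1. Its 3′ end overlaps that of Htra2, a gene of a mitochondrial protease on the other strand, with which it shares 458 of 4656 words of 31 bases (9.84%). Htra2 had 41.5 ± 4.9 and 42.2 ± 0.3 CPM in Htr2b_cKO and in control. The kit kept strand, but whether the counting used it is not given in the sources used here, so reads of that overlap could belong to either gene.

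Loxl4, the least abundant member, showed the largest difference of the 5. The gene (ENSMUSG00000025185) lies on the minus strand of chromosome 19 from 42593982 to 42612813, and its transcripts shared 0 words of 31 bases with other genes. It had 444, 1023, 477 and 580 estimated counts in Htr2b_cKO libraries 1 to 4, against 445 and 327 in control. Scaled to library size this was 15.8, 30.8, 14.4 and 17.2 CPM in Htr2b_cKO against 11.6 and 11.8 CPM in control. The groups did not overlap, and Htr2b_cKO 2 stood well above the other 3. The means were 19.6 ± 7.6 and 11.7 ± 0.2 CPM in Htr2b_cKO and in control, a log2 fold change of 0.74 (SE 0.32, 95% interval 0.01 to 1.48, unadjusted p = 0.04827, edgeR adjusted p = 0.5197). In the authors' normalized signal Loxl4 stood at 510, 936, 536 and 581 in Htr2b_cKO against 353 and 348 in control, again without overlap.

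The size of the Loxl4 difference rested on 1 library: without Htr2b_cKO 2 the log2 fold change was 0.44. Without the library labelled Htr2b_cKO 3 it was 0.88, and without both that library and Htr2b_cKO 4 it was 1.00. With those same 2 libraries left out, Lox was at 0.45, Loxl1 at -0.05, Loxl2 at 0.43 and Loxl3 at 0.09. No member was called in any of 14 alternative analyses.

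**Figure D3:**
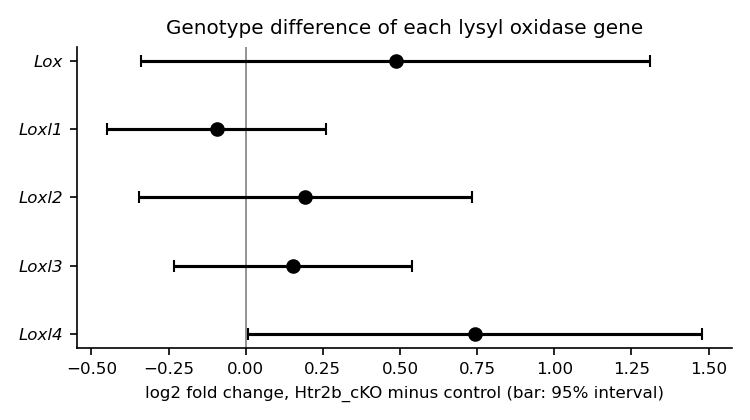
Log2 fold change of each lysyl oxidase gene, Htr2b_cKO minus control, from the edgeR fit, with its 95% interval as a bar. The intervals of Lox, Loxl1, Loxl2 and Loxl3 span 0, and that of Loxl4 runs from 0.01 to 1.48.

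The 5 genes did not share a profile over the libraries. After each gene's log2 CPM had been centred on its mean, the root mean square distance between members over the 6 libraries ran from 0.22 (Loxl1 and Loxl3) to 0.47 (Loxl1 and Loxl4). Lox was 0.42 to 0.46 away from each of the others, and for every pair at least 25.7% of 12119 other protein-coding genes lay nearer to the first gene than its family member did. Lox was highest in Htr2b_cKO 4, Loxl2 in Htr2b_cKO 1, Loxl3 in Htr2b_cKO 4, Loxl4 in Htr2b_cKO 2 and Loxl1 in control 2. The library labelled Htr2b_cKO 3 was the lowest for Loxl1 and for Loxl2.

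**Figure D4:**
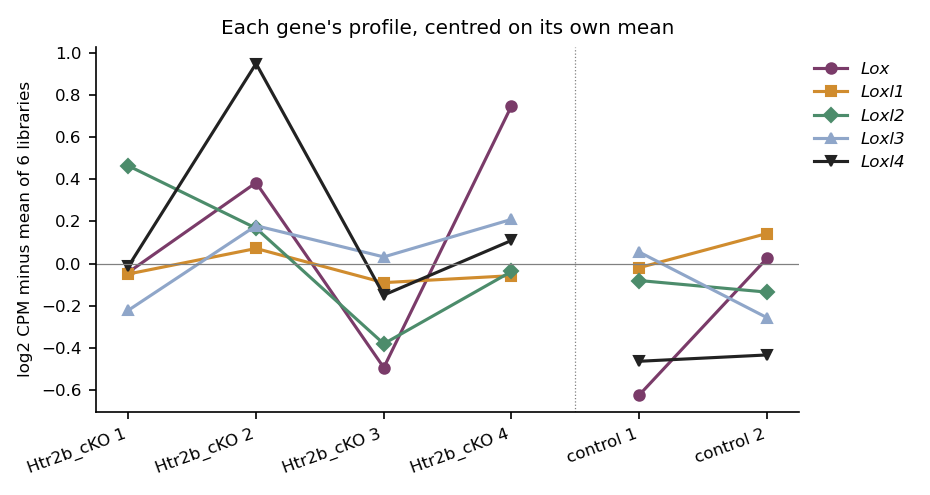
Log2 CPM of each lysyl oxidase gene minus its mean over the 6 libraries, the 4 Htr2b_cKO libraries left of the 2 control libraries; lines only link the points of 1 gene. Loxl4 peaks in Htr2b_cKO 2 at 0.95, Lox in Htr2b_cKO 4 at 0.75 and Loxl2 in Htr2b_cKO 1 at 0.46, while Loxl1 stays between -0.09 and 0.14.

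The genes nearest to each member by that distance were mostly outside the matrix. For Lox they were Errfi1, a feedback inhibitor of EGF receptor signalling, at a distance of 0.10, then Ell2 (0.13) and Ppp2r2b (0.14). Errfi1 had 243, 364, 168 and 479 CPM in Htr2b_cKO libraries 1 to 4 and 155 and 255 CPM in control, which is the same order of the 6 libraries as for Lox. For Loxl4 they were the homeobox gene Hoxd8 (0.10), Apol6 (0.13) and Hells (0.17), and for Loxl2 they included Larp1b (0.08) and the clock gene Cry1 (0.09). Gdf6, Tatdn1 and Gsap lay within 0.06 of Loxl3, and Rab40b, Ppp2r5a and Atxn10 within 0.04 of Loxl1, a gene with little variation to match. These distances describe 6 libraries and carry no test.

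The members were also set against their main substrates. Col1a1, Col1a2 and Col3a1 encode the chains of collagens I and III. Summed, they had 68266 to 122555 CPM in Htr2b_cKO and 84961 and 107664 CPM in control. The lowest sum was in the library labelled Htr2b_cKO 3. The log2 ratio of Lox CPM to the summed CPM of these 3 genes was -6.40 ± 0.30 in Htr2b_cKO and -6.78 ± 0.22 in control, a difference of 0.38. For Loxl4 the ratio was -12.39 ± 0.52 and -13.00 ± 0.22, a difference of 0.61. For Loxl1, Loxl2 and Loxl3 the differences were -0.16, 0.10 and 0.08, each smaller than the SD among the Htr2b_cKO libraries. Leaving out 1 library turned 2 of these: Loxl2 was at -0.10 without control 2, and Loxl3 at -0.24 without control 2 and at -0.09 without the library labelled Htr2b_cKO 3. The difference of Loxl1 ran from -0.32 to -0.05, that of Lox from 0.23 to 0.54 and that of Loxl4 from 0.39 to 0.76.

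The genes that activate lysyl oxidases or place them in the matrix did not pass the test either. Among the 14 of them tested, 0 were called; the fold change was positive for 9 and negative for 5, and its median on the log2 scale was 0.05. Bmp1, the main protease that frees Lox from its propeptide, had 1128 ± 234 CPM in Htr2b_cKO and 1191 ± 219 CPM in control. Fn1, the fibronectin gene, had 9032 ± 3072 and 9546 ± 3287 CPM, and Postn, whose product also helps Lox activation, had 1542 ± 561 and 1947 ± 512 CPM, in Htr2b_cKO and in control. Because 1 Postn allele of the Htr2b_cKO mice carried the Cre, its level cannot be told apart from an effect of that allele. The members with the smallest p were Tll1, a relative of Bmp1, at 3.66 ± 1.45 and 2.40 ± 0.34 CPM (log2 fold change 0.62, edgeR adjusted p = 0.6668), and Thbs1, the thrombospondin-1 gene, at 1083 ± 314 and 833 ± 74 CPM (0.38, edgeR adjusted p = 0.6928).

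Copper reaches lysyl oxidases in the secretory pathway through the pump encoded by Atp7a. Of this group's 5 genes Atp7b was too low to test; of the other 4, 2 were above 0 and 2 below (median -0.06), and 0 were called. Atp7a had 33.4 ± 7.2 CPM in Htr2b_cKO and 31.2 ± 13.1 CPM in control. Atox1, the copper chaperone that serves it, had 38.4, 46.1, 52.0 and 41.3 CPM in Htr2b_cKO against 60.0 and 48.7 CPM in control (log2 fold change -0.29, edgeR adjusted p = 0.6182), and the groups overlapped. Slc31a2, which encodes a copper transporter, had 18.8 ± 5.0 and 21.7 ± 0.8 CPM in Htr2b_cKO and in control (-0.21, edgeR adjusted p = 0.8041).

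Of 8 substrate genes, 6 were above 0 and 2 below (median 0.09), and 0 were called. Col5a2, a chain of collagen V, which regulates fibril width, had 3304, 3557, 2534 and 3345 CPM in Htr2b_cKO against 2492 and 2684 CPM in control (log2 fold change 0.30, edgeR adjusted p = 0.6725). Col4a2 of the basement membrane had 668 ± 101 CPM in Htr2b_cKO and 768 ± 174 CPM in control (-0.20, edgeR adjusted p = 0.7843), but 0.05 without control 1, the library with the most endothelial marker RNA. The part of endothelial cells in that value was not tested.

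Lysines must often be hydroxylated before a lysyl oxidase acts on them, and the hydroxylated form gives the more stable crosslinks of scars. Of 8 genes of this step, 2 were above 0 and 6 below (median -0.02), and 0 were called. Plod2, the hydroxylase of collagen telopeptides, had 503, 392, 258 and 562 CPM in Htr2b_cKO against 243 and 372 CPM in control (log2 fold change 0.48, SE 0.33, edgeR adjusted p = 0.6744). As with Lox, Htr2b_cKO 4 was its highest library, and the library labelled Htr2b_cKO 3 and control 1 were its lowest. Its log2 fold change was 0.20 without control 1, 0.83 without control 2 and 0.27 after correction for GC content and length. P3h4, which works with the hydroxylases in the endoplasmic reticulum, had 141 ± 7 and 159 ± 8 CPM in Htr2b_cKO and in control (-0.18, edgeR adjusted p = 0.6842). Its 4 Htr2b_cKO libraries, at 131 to 146 CPM, were below both controls, at 153 and 165 CPM, as for 8.98% of all genes.

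Crosslinks are also made by other enzymes. The group of 6 genes taken for them also held Prdx4, a peroxiredoxin gene. Tgm3 was too low to test. Of the other 5, 2 were above 0 and 3 below, and 0 were called. The median, -0.15, was the value of Prdx4. Tgm1, a transglutaminase gene best known from skin, had 6.2, 6.24, 6.37 and 8.05 CPM in Htr2b_cKO against 8.38 and 13.6 CPM in control (log2 fold change -0.70, SE 0.25, unadjusted p = 0.02227, edgeR adjusted p = 0.4487). The groups did not overlap, but the 4 Htr2b_cKO libraries were wholly below the controls for 8.98% of all genes. At an unadjusted edgeR p under 0.05, 473 of 15840 genes were lower in Htr2b_cKO. For Tgm1 the value was -0.31 without control 2. Prdx4, an endoplasmic reticulum peroxiredoxin gene, had 101 ± 15 and 112 ± 13 CPM in Htr2b_cKO and in control (-0.15, edgeR adjusted p = 0.8063).

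Known inducers of lysyl oxidase genes, the TGF-β ligands, receptors and effectors and the hypoxia factors, had a median log2 fold change of 0.22. Of 9 tested, 5 were above 0 and 4 below, and 0 were called. Without the library labelled Htr2b_cKO 3 that median was 0.075, below that of the substrates, which was then 0.245. Tgfbr1, the type I TGF-β receptor gene, had 91.4, 83.8, 99.1 and 107 CPM in Htr2b_cKO against 52.2 and 73.3 CPM in control (log2 fold change 0.61, SE 0.18, unadjusted p = 0.008206, edgeR adjusted p = 0.3927). The groups did not overlap, but the 4 Htr2b_cKO libraries were wholly above the controls for 10.6% of all genes. At an unadjusted edgeR p under 0.05, 6.6% of all genes were higher in Htr2b_cKO. For Tgfbr1, leaving out control 1 gave 0.38, and correcting for GC content and length gave 0.28. Tgfb2 had 89.4 ± 26.0 and 67.0 ± 19.4 CPM (0.42, edgeR adjusted p = 0.6801), and Hif1a, the hypoxia factor gene, had 410, 323, 215 and 469 CPM in Htr2b_cKO against 192 and 318 CPM in control (0.48, edgeR adjusted p = 0.6844). Tgfb2 was at 0.14 without control 1 and at 0.75 without control 2. Hif1a was also highest in Htr2b_cKO 4 and lowest in the library labelled Htr2b_cKO 3 and in control 1. Epas1 had 111 ± 70 CPM in Htr2b_cKO and 127 ± 9 CPM in control.

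**Figure D5:**
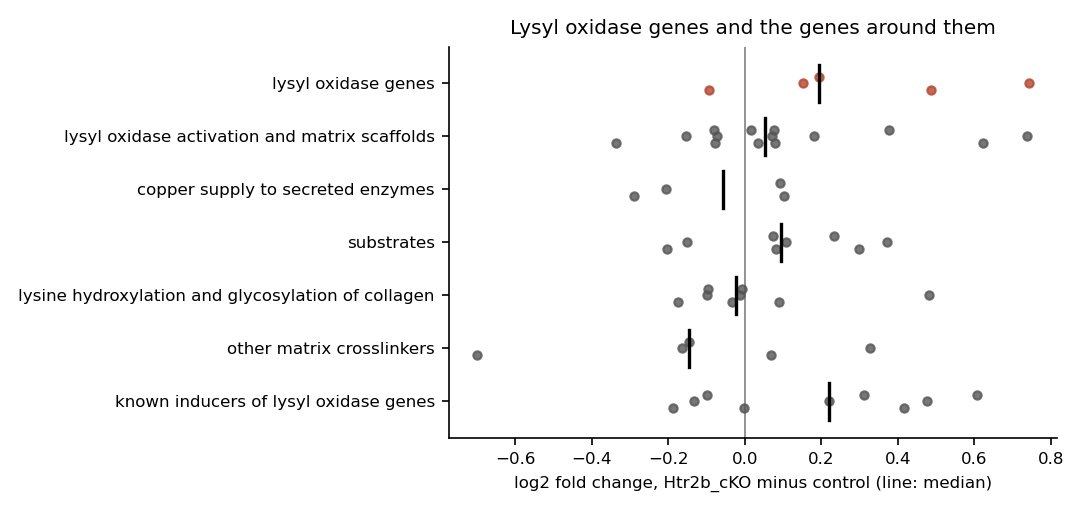
Log2 fold change, Htr2b_cKO minus control, of the lysyl oxidase genes (red) and of the tested genes in the 6 groups around them (grey), 1 point per gene, with each group's median as a line. The medians lie between -0.15 and 0.22, and no point passed the test.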

How the data were processed

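RNA was sequenced from sorted cells of 6 mice, and each library was taken as 1 animal, so p-values measure the spread between these libraries. The authors deposited estimated counts per Ensembl gene, which are whole numbers, and a normalized signal, in which the authors divided each estimated count by a factor of its gene and library. DRAGEN, DESeq2 and build mm10 are named per the submitters' processing notes; for the counter's settings and strand use, nothing is given in the sources used here. Names, exon lengths and sequences came from GENCODE M21 (mm10), which held all 42256 identifiers.

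The deposited estimated counts were tested, two-sided, with edgeR 4.0.16 (quasi-likelihood F test, TMM, filterByExpr, robust) in R 4.3.3 on 15840 genes, with genotype as the only term; a Benjamini-Hochberg adjusted p under 0.05 over all of them was a call. SE was taken from the log2 fold change and F. Intervals are 95%. With 2 against 4 libraries the smallest permutation p is 0.0667, so none was used. Totals were 28533427 to 37392496 counts, and 3 counts were 0.0781 to 0.108 CPM, which covers counting error only. Length was the merged exons. The genes, groups and tests were chosen with earlier results of these data known. Named were the 5 family members, the check genes, the 3 collagen substrates, the 2 genes of smallest p in each group and the 3 nearest profiles per member (1 of them is not reported here); Bmp1, Fn1, Atp7a, Hif1a, Epas1, Eln and Fbln5, and genes whose transcripts overlap or resemble a member's, were added. The fit was tested on simulated counts, in which genes above a minimum level were changed. It recovered 54% of 100 genes changed 2-fold and 98% of 100 changed 4-fold, with 5 false calls. Each simulated gene had the spread usual at its level rather than its own, so these shares need not hold for genes of wide spread. Alternatives were RLE scaling, no filter, DESeq2 1.42.0, limma 3.58.1 voom, the authors' factors, a GC and length correction, leaving out libraries and another dispersion setting.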

Additional observations from a re-analysis of the deposited data

How the results depend on the processing

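No lysyl oxidase gene was called in any of 14 alternatives, and all kept their direction except Loxl1, whose log2 fold change was 0.047 after the GC and length correction. Loxl4 ran from 0.44 to 1.00, with an unadjusted p under 0.05 in 10 of 14; Lox ran from 0.20 to 0.85, with 1 of 14. That same correction put Atox1 at 0.185 and P3h4 at 0.009; the cause was not tested. With 1 library left out in turn, Col4a2 ran from -0.411 to 0.047, Tll1 from 0.32 to 0.81, Thbs1 from 0.22 to 0.56, Slc31a2 from -0.40 to -0.12 and Prdx4 from -0.25 to -0.03. The count of called genes, 3, was 5 without the low-count filter, 105 with DESeq2, 1 with limma voom, 5 without the libraries labelled Htr2b_cKO 3 and Htr2b_cKO 4, and 1 to 8 with 1 library left out (1 without control 1, 6 without control 2 and 8 without Htr2b_cKO 4). With the longest transcript as length, Loxl4 in control was at 3.13 CPM per kb and 0.397% of the family. The other dispersion setting was chosen after seeing the data. The labels give the genotype but no replicate numbers, so libraries were numbered here within each genotype in the order of the series. In a name such as Htr2b_cKO 3 only the genotype is from the labels. They name no pairs of Htr2b_cKO and control mice, and no paired analysis was made. The pair of control libraries limits all comparisons: the interval of Lox spans 0.791-fold to 2.48-fold.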

Other observations

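Elastin is the other main substrate of the family, and Eln, picked here after its values were seen, varied more between libraries than the fibrillar collagen genes. It had 737, 1240, 2447 and 657 CPM in Htr2b_cKO libraries 1 to 4, against 1012 and 952 CPM in control, and the library labelled Htr2b_cKO 3 stood highest. The means were 1270 ± 826 and 982 ± 42 CPM in Htr2b_cKO and in control (log2 fold change 0.37, edgeR adjusted p = 0.8586). Fbln5, the gene of the elastic fibre protein fibulin-5 that binds Loxl1, was also highest there, at 182 CPM, with 92.3 to 114 CPM in the other 3 Htr2b_cKO libraries and 137 and 97.5 CPM in control. Loxl1 itself had 1079 CPM in that library, its lowest value. That library also had the most macrophage marker RNA, 863 CPM, and the part of those cells in these values was not tested.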
